A study of Mus musculus with 3 samples.

Results

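The 35 genes described here encode the basement membrane, the elastic matrix and the integrins of muscle endothelium, and were picked by symbol out of the 41605 gene rows of each count matrix. They comprise 4 basement membrane collagens, 5 laminin chains, 4 nidogen and heparan sulfate proteoglycan genes, 3 genes of the SPARC family and fibronectin, 8 elastic matrix genes, 2 crosslinking enzymes, 3 proteases and 6 integrin subunits. Every symbol matched 1 row. The genes were not selected by a threshold on measured values, but they were chosen with earlier results of these data known. The type IV collagens, 3 laminin chains and perlecan were called higher in capillary than in artery and vein cells, while most elastic matrix genes, Col18a1, Lox and the proteases were called higher in artery and vein cells. Where an alternative ended such a call against capillary, this is stated beside the gene.

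Endothelial cells rest on a basement membrane, a sheet in which networks of type IV collagen and laminin are joined by nidogens and by heparan sulfate proteoglycans such as perlecan. Larger vessels add elastic fibres, in which elastin is laid on microfibrils of fibrillin, assembled with the help of fibulins and crosslinked by lysyl oxidases. Integrins are receptors of paired alpha and beta chains that hold the cell to these proteins.

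The cells came from gastrocnemius muscle of C57BL/6N mice and were sorted as CD31+, CD45- and SYTOX blue-negative, that is, as viable endothelial cells. There were 3 droplet libraries, 1 per group: sedentary mice housed singly without a wheel, mice housed singly that ran on a wheel by choice for 14 days, and a library labelled as having no treatment. The labels do not tell how the mice of that library were housed, nor how many animals went into any library. With 1 library per group, a difference between groups has no replicate check, and it cannot be told apart from a difference between the preparations of the libraries. The study set sedentary against running endothelium; the comparison of vessel classes uses the 3 libraries as its replicates, whose spread may be technical.

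The libraries held 5625068 to 8002866 unique molecular identifiers (UMIs, each 1 counted transcript) in 3260 to 4376 barcodes, with medians of 1122 UMIs per barcode in the sedentary library, 1518 in the running and 1582 in the untreated. Between 20 and 32 barcodes were shared by each pair of libraries. Cells were clustered together with the 35 genes left out, so that their levels had no part in choosing the cells, and clusters were named from markers of other genes. All 8 endothelial markers, such as Cdh5 and Cldn5, were found in each named class of every library. The capillary-like class held 2042 untreated, 2979 sedentary and 2279 running cells, the artery-like class 1088, 473 and 401, the vein-like class 563, 235 and 242, and the lymphatic-like class 27, 10 and 43. The untreated library stood apart in its mix of capillary clusters: 1201 of the 1368 cells of cluster 0 were untreated. Most untreated capillary-like cells lay there, with 427 in cluster 4, 200 in cluster 7, 129 in cluster 1 and 85 in cluster 10. Sedentary and running capillary-like cells lay mainly in clusters 4, 7 and 1, with 88 and 79 in cluster 0. A further cluster, number 5, scored as capillary but had Unc5b, Btnl9 and Efnb2 among its leading genes. Its 468 untreated, 134 sedentary and 40 running cells were left without a name. Clusters 11, 13 and 15 scored as mural cells (pericytes and smooth muscle), muscle fibre and erythrocytes. Their 99, 157 and 21 cells entered none of the vessel classes.

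Levels are given as CPM, the UMIs of a gene per 1000000 UMIs of the same class and library. The 3 values of a gene follow the order untreated, sedentary and running. The chemistry counts 3′ ends, so levels are compared between cells for 1 gene and not between genes.

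**Figure D1:**
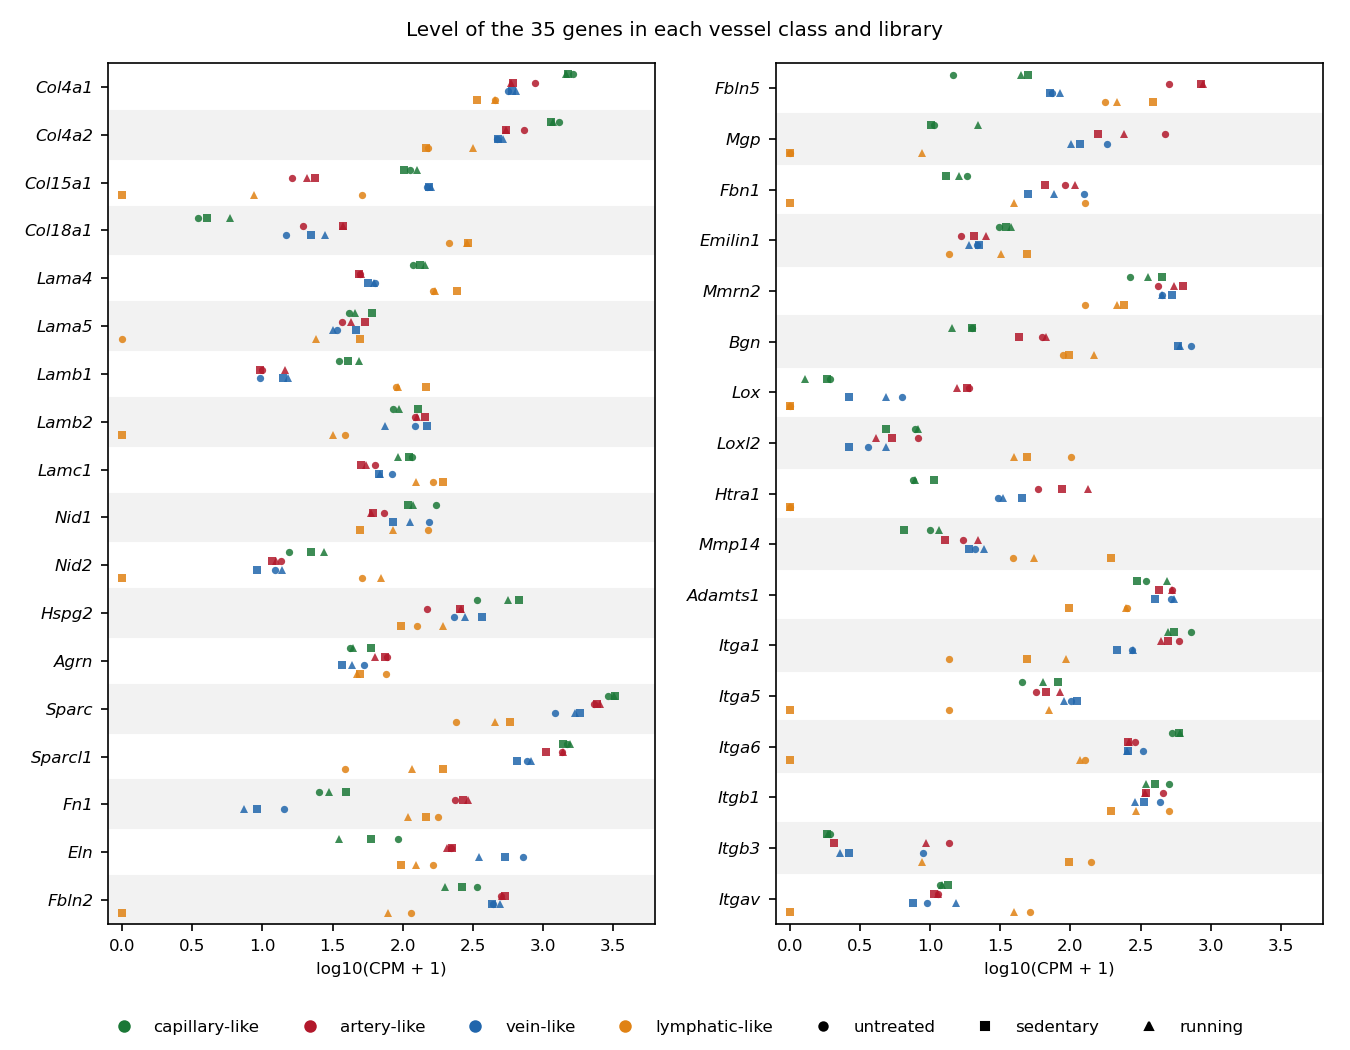
Level of each of the 35 genes in CPM, as log10(CPM + 1), in the capillary-like (green), artery-like (red), vein-like (blue) and lymphatic-like (orange) cells of the untreated (circle), sedentary (square) and running (triangle) libraries. Fbln5 lies between 507 and 885 CPM in the artery-like cells and between 13.7 and 48.8 CPM in the capillary-like cells.

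Col4a1 and Col4a2 encode the 2 chains of the common type IV collagen network and lie head to head; their shared start is shown here because both genes are described below. In GENCODE M21 on GRCm38, Col4a1 starts at position 11312826 of chromosome 8 on the minus strand and Col4a2 at position 11312805 on the plus strand, so that their annotated 5′ ends overlap by 22 bases. These bases, chr8:11312805-11312826 in the RefSeq sequence of GRCm38.p6, read on the plus strand:
Col4a1 and Col4a2 shared start: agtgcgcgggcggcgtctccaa
Whether the counting used strand is not stated in the labels. RefSeq promoter windows were matched for 23 of the 35 genes. On the same build and annotation, 5 of the genes described with values below lie as follows: Fn1 at chr1:71585520-71653200, Eln at chr5:134702593-134747323, Fbln5 at chr12:101746565-101819055, Mgp at chr6:136872435-136875823 and Bgn at chrX:73483602-73495933.

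Between vessel classes, edgeR's quasi-likelihood test over the 3 libraries called 28 of the 35 genes different between artery-like and capillary-like cells at an adjusted p under 0.05. Of these, 16 were higher in artery-like cells, against 11.6% of all 9945 genes tested, and 12 were lower, against 10.9%. The median log2 fold change of the 35 was -0.09, against -0.01 for all genes. Vein-like against capillary-like cells gave 16 genes higher, against 13.2% of all genes, and 11 lower, against 10.5%, with a median of 0.00 against -0.01. Direct comparison of artery-like with vein-like cells gave 9 higher in artery, against 12.1%, and 8 lower, against 13.9%, with a median of 0.00 against -0.01. The first 2 comparisons share the capillary cells, so their calls are not independent. All 28 artery calls and all 17 artery-to-vein calls had the same direction in the 3 libraries, as did 26 of the 27 vein calls, the exception being Lamb2. Requiring 500 genes per cell gave an artery-like class of 156 untreated, 104 sedentary and 112 running cells, against 1088, 473 and 401. It moved several artery values by over 1.5 times without ending their calls. Col4a1 was then at -2.03, Col4a2 at -2.00, Eln at 2.81, Mgp at 6.81, Bgn at 3.39 and Htra1 at 4.70. Eln in artery against vein lost its call there, at -0.39 (edgeR adjusted p = 0.052).

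**Figure D2:**
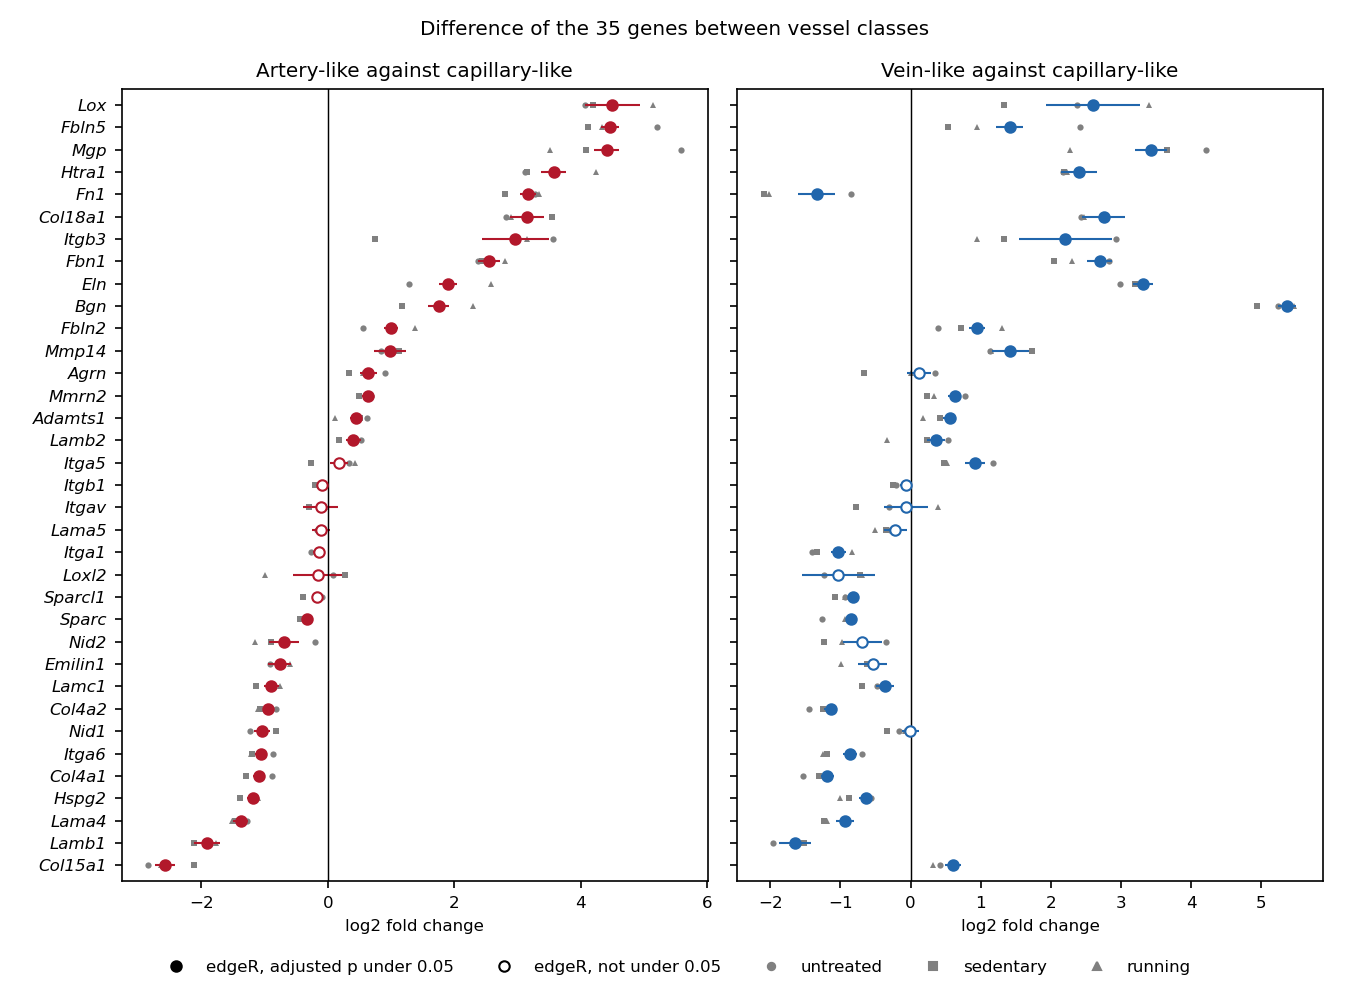
Log2 fold change of each gene in artery-like (left, red) and vein-like (right, blue) against capillary-like cells, with its standard error as a bar; filled points passed edgeR's adjusted p of 0.05, open points did not, and small grey marks are the log2 ratio within each library. Lox, Fbln5 and Mgp are highest in the left panel, at 4.50, 4.47 and 4.41, and Bgn is highest in the right panel, at 5.37.

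Among the basement membrane collagens, Col4a1 stood at 1629, 1497 and 1459 CPM in capillary-like cells, at 883, 613 and 592 in artery-like cells and at 565, 602 and 636 in vein-like cells. Each capillary value was above each artery and vein value, and the log2 fold change was -1.10 ± 0.09 (SE, 3 libraries) in artery and -1.18 ± 0.09 in vein (edgeR adjusted p = 1.1e-11 and 2.3e-12). Its partner Col4a2 stood at 1289, 1137 and 1175 CPM in capillary-like, 733, 539 and 547 in artery-like and 470.4, 478 and 513 in vein-like cells. Again capillary did not overlap the other classes, and Col4a2 fell by 0.94 ± 0.09 and 1.14 ± 0.09 on the log2 scale. The ratio of Col4a1 to Col4a2 UMIs was 1.26, 1.32 and 1.24 in capillary-like cells and ran from 1.08 to 1.32 over the 9 sums of these 3 classes. In lymphatic-like cells it was 3.0, 2.33 and 1.44, on 12, 3 and 41 Col4a2 UMIs.

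Col15a1 encodes type XV collagen, which sits at the outer face of basement membranes. It stood at 111, 101 and 126 CPM in capillary-like cells, 15.3, 22.6 and 19.9 in artery-like cells and 149, 152 and 157 in vein-like cells. The 3 classes did not overlap, with vein highest and artery lowest. Artery against vein gave a log2 fold change of -3.19 ± 0.17 (edgeR adjusted p = 3.2e-17), a 9.10-fold difference. Col18a1, the type XVIII collagen whose C-terminal fragment is endostatin, was lowest in capillary-like cells, at 2.48, 3.05 and 4.86 CPM from 8, 11 and 17 UMIs. It stood at 18.4, 36.7 and 36.6 in artery-like and 13.9, 21.2 and 27.1 in vein-like cells. The log2 fold change was 3.15 ± 0.26 in artery and 2.75 ± 0.31 in vein. The vein value was 1.56 and lost its call when cells with any UMI of a mural or fibroblast marker were left out.

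Of the laminin chains, 3 were lower in artery-like cells and the same number in vein-like cells. Lamb1, the beta 1 chain, stood at 34.4, 39.6 and 47.8 CPM in capillary-like, 8.98, 8.63 and 13.6 in artery-like and 8.58, 13.1 and 14.2 in vein-like cells. Its log2 fold changes were -1.91 ± 0.21 and -1.65 ± 0.23. Lama4, the alpha 4 chain found in most endothelial basement membranes, stood at 118, 133 and 143 CPM in capillary-like cells, at 48.5, 47.5 and 49.1 in artery-like cells and at 62.0, 55.5 and 61.9 in vein-like cells. It fell by 1.38 ± 0.12 and 0.94 ± 0.13 on the log2 scale. For both chains each capillary value was above each artery and vein value. Lamc1, the gamma 1 chain that most laminins contain, was lower by a log2 fold change of -0.90 ± 0.12 in artery and -0.36 ± 0.13 in vein. The vein call was lost whichever library was left out, with an edgeR adjusted p between 0.075 and 0.21.

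The other laminin chains did not share this order. Lamb2, the beta 2 chain, stood at 84.1, 127 and 93.0 CPM in capillary-like, 120.4, 142 and 124 in artery-like and 121, 149 and 73.5 in vein-like cells. The capillary range overlapped both others, and the log2 fold changes of 0.40 ± 0.12 in artery and 0.37 ± 0.13 in vein (edgeR adjusted p = 0.013 and 0.038) did not keep their calls without single libraries. The edgeR adjusted p in artery was 0.071 without the running library. In vein it was 0.52 without the untreated and 0.18 without the sedentary library. Lama5, the alpha 5 chain, stood at 40.7, 59.0 and 44.9 CPM in capillary-like cells, at 35.9, 52.8 and 41.8 in artery-like cells and at 33.0, 45.7 and 31.0 in vein-like cells. These ranges overlapped throughout, and Lama5 did not pass the test in any of the 3 comparisons.

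The linkers of the sheet followed the capillary pattern in part. Hspg2, which encodes perlecan, stood at 339, 672 and 560.0 CPM in capillary-like, 149, 257 and 260.4 in artery-like and 230.3, 364 and 277 in vein-like cells. Within each library the order was capillary, vein, artery, although the sedentary vein value was above the untreated capillary value, and the log2 fold changes against capillary were -1.19 ± 0.10 in artery and -0.64 ± 0.10 in vein. The vein call was lost with no library block (edgeR adjusted p = 0.13), as was the call between artery and vein (0.25). Nid1, or nidogen 1, which bridges laminin and type IV collagen, stood at 172, 108 and 117 CPM in capillary-like cells, at 72.8, 60.4 and 58.6 in artery-like cells and at 154, 84.9 and 111 in vein-like cells. Artery was below both other classes in every library, at -1.04 ± 0.12 against capillary and -1.04 ± 0.14 against vein.

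Nid2, or nidogen 2, stood at 14.6, 21.1 and 26.6 CPM in capillary-like, 12.6, 10.8 and 11.5 in artery-like and 11.2, 8.16 and 12.9 in vein-like cells. Its artery call had a log2 fold change of -0.69 ± 0.24 and an edgeR adjusted p of 0.034. The call was lost without the sedentary library (edgeR adjusted p = 0.17) and without the running library (edgeR adjusted p = 0.32). The 3′ end of Nid2 overlaps Rtraf on the opposite strand, so its UMIs are uncertain where strand was not used. Agrn, which encodes agrin, stood at 41.0, 58.2 and 42.9 CPM in capillary-like, 76.4, 73.3 and 62.7 in artery-like and 52.1, 35.9 and 42.6 in vein-like cells. All 3 artery values were above all capillary and vein values, with a log2 fold change of 0.64 ± 0.14 against capillary and 0.52 ± 0.17 against vein. The first call was lost with each library clustered alone (edgeR adjusted p = 0.057) and with no library block (0.069). The second was lost without the sedentary library (0.12), without the running library (0.072) and under 5 other alternatives.

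SPARC is a collagen-binding protein secreted by endothelium, and Sparcl1 is its relative. Sparc stood at 2926, 3276 and 3228 CPM in capillary-like, 2310.0, 2425 and 2528 in artery-like and 1214, 1839.7 and 1692 in vein-like cells, 3 ranges that did not overlap. Its artery call was lost with each library clustered alone (edgeR adjusted p = 0.15) and with no library block (0.2). Sparcl1 stood at 1474, 1379 and 1568 CPM in capillary-like cells, at 1375, 1049 and 1398 in artery-like cells and at 770.0, 655 and 818 in vein-like cells. Vein was below both other classes, at -0.82 ± 0.08 against capillary, and artery, at -0.18 ± 0.07, did not pass the test. Fn1, fibronectin, was the gene of the 35 that set arteries most apart from veins. It stood at 235, 267 and 291 CPM in artery-like cells, 24.2, 38.2 and 28.6 in capillary-like cells and 13.2, 8.16 and 6.45 in vein-like cells, from only 20, 5 and 5 UMIs. The classes did not overlap, and the log2 fold change was 3.17 ± 0.12 in artery and -1.34 ± 0.26 in vein against capillary and 4.50 ± 0.20 for artery against vein (edgeR adjusted p = 3.2e-19). Without the untreated library the vein value was -2.02 and the artery-to-vein value 5.14.

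Of the 8 elastic matrix genes, 7 were higher and 1 lower in artery-like than in capillary-like cells, and 7 were higher in vein-like cells. Eln, elastin itself, stood at 91.2, 58.5 and 34.3 CPM in capillary-like, 221, 223 and 205 in artery-like and 722, 535 and 349.5 in vein-like cells. Every vein value was above every artery value and every artery value above every capillary value. The log2 fold change was 1.89 ± 0.14 in artery and 3.31 ± 0.14 in vein, and -1.42 ± 0.13 for artery against vein. Fbln5, fibulin 5, which is needed to assemble elastic fibres, had the reverse order of the larger vessels. It stood at 507, 846 and 885 CPM in artery-like, 73.2, 70.2 and 83.8 in vein-like and 13.7, 48.8 and 43.8 in capillary-like cells. That is a 22.1-fold excess in artery over capillary (log2 fold change 4.47 ± 0.14, edgeR adjusted p = 1.5e-22). The vein excess of 1.41 ± 0.19 was 0.78 without cells holding a mural or fibroblast UMI, and lost its call at 500 genes per cell (edgeR adjusted p = 0.064). A UMI of Fbln5 was held by 44.4%, 62.4% and 65.6% of artery-like cells.

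Bgn, which encodes biglycan, a small proteoglycan that binds collagen, stood at 719, 583 and 598 CPM in vein-like cells, 62.0, 42.1 and 65.9 in artery-like and 18.9, 18.8 and 13.4 in capillary-like cells. It was the highest vein difference of the 35, 41.4-fold (log2 fold change 5.37 ± 0.13, edgeR adjusted p = 4.4e-27). Markers of mural cells, the pericytes and smooth muscle cells around a vessel, were also higher in vein-like cells: the 11 listed summed to 495, 632 and 645 CPM there, against 193, 168 and 227 in capillary-like cells. Tagln gave most of the vein sum, and 3 to 5 of the 11 were at 0 in each library. With cells holding any mural or fibroblast UMI left out, Bgn was at 5.20 and Eln at 3.29 in vein against capillary. Fbn1, which encodes the microfibril protein fibrillin 1, stood at 17.4, 11.9 and 15.2 CPM in capillary-like, 90.7, 64.7 and 107 in artery-like and 125, 49.0 and 74.8 in vein-like cells. It was higher by 2.54 ± 0.17 and 2.70 ± 0.18, with values overlapping between artery and vein.

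Mgp, matrix Gla protein, an inhibitor of vessel calcification, stood at 469, 156 and 240.5 CPM in artery-like, 180.1, 116 and 101 in vein-like and 9.62, 9.14 and 20.9 in capillary-like cells. Both larger classes were above capillary in every library, by 4.41 ± 0.20 in artery and 3.42 ± 0.23 in vein. Without the untreated library the artery value was 3.78, and without the running library the vein value was 4.06. Its artery UMIs came from few cells: 9.56%, 5.92% and 9.48% of artery-like cells held one, and the 10 highest cells held 44.1%, 85.5% and 77.4% of them, against 6.11%, 10.6% and 14.1% for Col4a1.

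Fbln2, fibulin 2, stood at 337, 264 and 198 CPM in capillary-like, 498, 534 and 512 in artery-like and 442, 434 and 490.1 in vein-like cells. It was higher by 1.00 ± 0.11 and 0.95 ± 0.12 with no overlap with capillary. Mmrn2, multimerin 2, an endothelial matrix protein, stood at 263, 451 and 356 CPM in capillary-like cells, at 421, 633 and 546 in artery-like cells and at 451, 531 and 450.1 in vein-like cells. It was higher in both larger classes within each library, by 0.63 ± 0.09 and 0.63 ± 0.09. Its ranges overlapped all the same, and both calls were lost in a fit without the library as a block. Emilin1, the related elastic fibre glycoprotein, was the elastic matrix gene that went the other way, at -0.76 ± 0.19 in artery, and at -0.54 ± 0.21 in vein, where it did not pass. The artery call of Emilin1 was lost at 500 genes per cell (edgeR adjusted p = 0.35), with cells thinned (0.055) and with DESeq2 (0.085).

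Of the crosslinking enzymes, Lox, the lysyl oxidase that crosslinks elastin and collagen, had 40, 16 and 14 UMIs in artery-like cells, 8, 1 and 3 in vein-like and 3, 3 and 1 in capillary-like cells. In CPM every artery value was above every other value, and the log2 fold change was 4.50 ± 0.43 against capillary and 1.90 ± 0.42 against vein, the latter at 1.56 and no longer called without cells holding a mural or fibroblast UMI (edgeR adjusted p = 0.051). The vein value of 2.60 ± 0.67 rests on 12 UMIs and lost its call without the untreated library (edgeR adjusted p = 0.095). Loxl2, its relative, stood at 6.83, 3.88 and 7.15 CPM in capillary-like, 7.19, 4.31 and 3.14 in artery-like and 2.64, 1.63 and 3.87 in vein-like cells and passed no test. All 3 proteases were called higher in both larger classes, though not all calls held under the alternatives. Htra1, a secreted serine protease, stood at 57.5, 86.3 and 132 CPM in artery-like, 29.7, 44.1 and 32.2 in vein-like and 6.52, 9.70 and 6.87 in capillary-like cells. These ranges did not overlap, and the log2 fold change was 3.57 ± 0.19 in artery. Adamts1, a metalloproteinase that cuts proteoglycans, stood at 344, 298 and 488 CPM in capillary-like cells, at 527, 424 and 525 in artery-like cells and at 519, 398 and 549 in vein-like cells. It was higher by 0.45 ± 0.09 and 0.56 ± 0.09, with overlapping ranges. With no library block the Adamts1 calls were lost in artery (edgeR adjusted p = 0.27) and vein (0.11), and the artery call also at 500 genes per cell (0.65) and at resolution 0.5 (0.0996). Mmp14, a membrane-bound collagenase, was higher by 0.99 ± 0.25 and 1.42 ± 0.26, and its artery call was lost with no library block (edgeR adjusted p = 0.058).

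Of the 6 integrin chains, 1 was higher and 1 lower in artery-like cells, and 2 were higher and 2 lower in vein-like cells, each against capillary. Itga6, a laminin-binding chain, stood at 528, 588 and 606 CPM in capillary-like, 288, 256 and 259 in artery-like and 326, 256 and 254 in vein-like cells. Itga1, a collagen-binding chain, stood at 719, 543 and 496 CPM in capillary-like cells, at 596, 498 and 441 in artery-like cells and at 273, 214 and 277 in vein-like cells. Itga6 was lower in both larger classes (-1.06 ± 0.10 and -0.86 ± 0.10), whereas Itga1 was lower in vein (-1.03 ± 0.10) and did not pass in artery (-0.15 ± 0.09). Artery against vein was 0.88 ± 0.11 for Itga1 (edgeR adjusted p = 2.6e-08). Itga5, the main alpha chain of the fibronectin receptor, stood at 44.4, 80.1 and 62.4 CPM in capillary-like cells, at 55.7, 65.8 and 83.7 in artery-like cells and at 100.3, 111 and 89.0 in vein-like cells. It was highest in vein, by 0.91 ± 0.14 against capillary. Itgb1, the beta chain shared by these receptors, differed by -0.09 ± 0.09 and -0.07 ± 0.09, and Itgav by -0.11 ± 0.28 and -0.07 ± 0.31; neither passed. Itgb3, a partner of Itgav, was higher in artery (2.96 ± 0.53) and vein (2.21 ± 0.66), but on 28, 1 and 8 UMIs in artery-like, 12, 1 and 1 in vein-like and 3, 3 and 3 in capillary-like cells. Its vein call was lost with DESeq2 (adjusted p = 0.13) and with no library block (edgeR adjusted p = 0.1).

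Within the artery-like class, 4 of the 8 elastic matrix genes and the proteases Htra1 and Adamts1 differed between its clusters, Adamts1 in the other direction. Cluster 12 (218, 279 and 211 cells) was compared with cluster 2 (870, 194 and 190 cells), a comparison chosen after these data were seen. Genes were counted as different where the summed libraries differed by at least 2-fold and every library went the same way. Of the 26 genes with at least 100 UMIs, 5 were higher in cluster 12, against 1.9% of all 5568 genes, and 1 was lower, against 2.69%. Mgp, Htra1 and Fbln5 are themselves among the 10 leading genes of cluster 12, so their values are a description. Mgp differed by a log2 ratio of 3.82 (95% interval 3.60 to 4.05), and Bgn by 3.21 (95% interval 2.75 to 3.71). Htra1 differed by 1.95 (95% interval 1.63 to 2.29), Fbln5 by 1.04 (95% interval 0.93 to 1.15) and Eln by 1.03 (95% interval 0.84 to 1.22). These intervals, like all below, cover counting error only. Adamts1 was the gene that was lower, at -1.17. Among vein-like cells, cluster 8, with Ackr1 and Lrg1, set against cluster 9, with Selp and Vcam1, gave 1 of 24 genes higher, against 4.31%, and 1 lower, against 5.11%. Mgp was at 1.21 and Adamts1 was at -2.83 (95% interval -3.27 to -2.44).

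**Figure D3:**
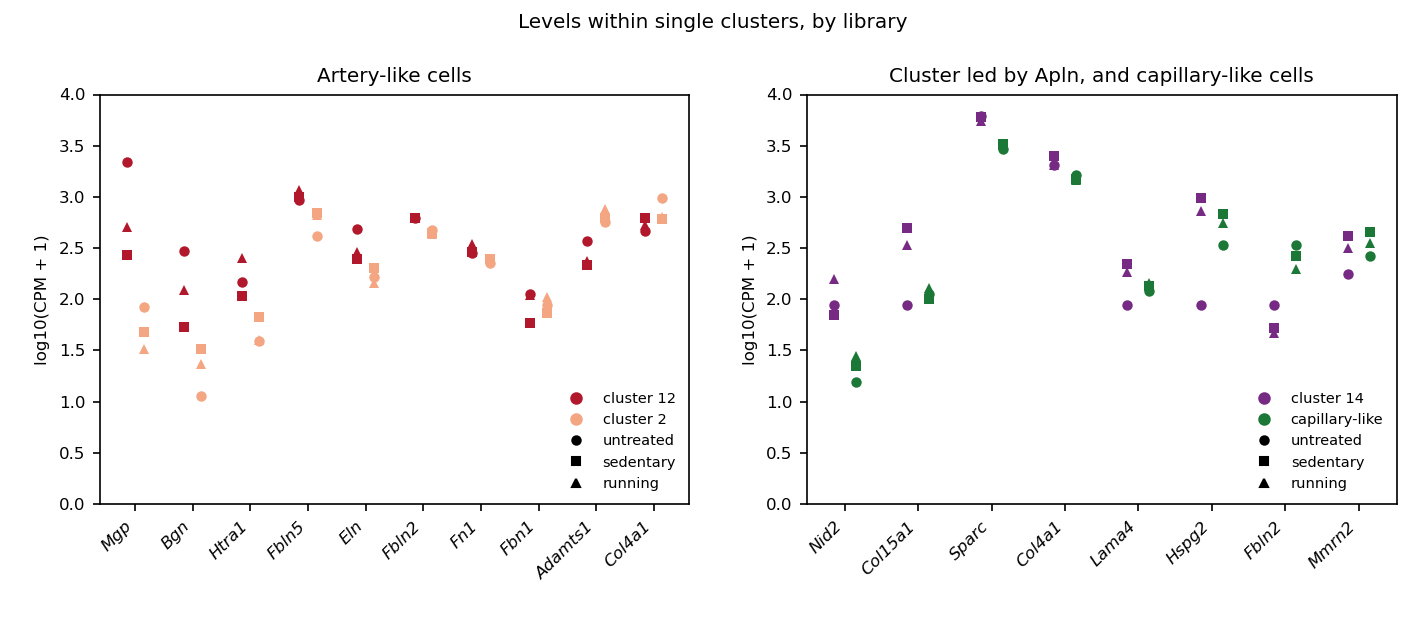
Levels as log10(CPM + 1) in single clusters, by library (circle untreated, square sedentary, triangle running): left, the artery-like clusters 12 (dark red) and 2 (light red); right, cluster 14 (purple) beside the capillary-like class (green). Mgp lies at 2193, 270.0 and 508 CPM in cluster 12 and at 83.6, 46.6 and 31.7 CPM in cluster 2.

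Cluster 14 had no vessel name; Apln, Kit and Adm were among its leading genes, as was Nid2, and it held 8 untreated, 28 sedentary and 80 running cells. Nid2 stood there at 87.3, 68.4 and 158 CPM, from 2, 4 and 31 UMIs, against 14.6, 21.1 and 26.6 in capillary-like cells. Sparc stood at 6114, 5971 and 5483 CPM, above every capillary value, and Col4a1 at 2053, 2532 and 2028 CPM, likewise. Col15a1 reached 87.3, 496 and 335 CPM from 2, 29 and 66 UMIs, above capillary in the sedentary and running libraries and below it in the untreated. Fbln2 was at 87.3, 51.3 and 45.7 CPM, below every capillary value. A further unnamed cluster, led by Penk (61, 42 and 34 cells), had Col15a1 at 739.7, 269 and 355 CPM and Lamb1 at 133, 104 and 79.8 CPM, both above every capillary value. Col4a1, at 833, 705 and 559 CPM, and Sparc, at 1846, 2041 and 1729 CPM, were below every capillary value there. These cells entered none of the class comparisons.

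The lymphatic-like class was small, with 80 cells in all, and was described only by level. It was set against capillary-like cells over the summed libraries by the same 2-fold rule. Of the 30 genes with at least 100 UMIs over both classes, 6 were higher, against 4.56% of 8648 genes, and 12 were lower, against 16.9%. The higher genes were Bgn, at a log2 ratio of 2.86 (95% interval 2.20 to 3.42), and Mmp14 at 2.91 (95% interval 1.94 to 3.69), then Fbln5 at 2.60 (95% interval 2.13 to 3.02) and Fn1 at 2.16 (95% interval 1.56 to 2.67). Lamb1 was at 1.26 (95% interval 0.54 to 1.85) and Eln at 1.18 (95% interval 0.58 to 1.67). Lower were Col4a1 at -1.78, Col4a2, Col15a1, Lama5, Lamb2, Hspg2, Fbln2 and Mgp. Also lower were Sparc at -3.00 (95% interval -3.33 to -2.71), Sparcl1 at -3.91 (95% interval -4.62 to -3.35), Itga1 at -3.21 (95% interval -4.13 to -2.51) and Itga6 at -2.38 (95% interval -3.03 to -1.84). Mgp had 1 lymphatic UMI, and Htra1 and Lox had 0, which allows up to 13.0 CPM. Col18a1 fell below the UMI minimum because capillary cells held so little of it, but its 17, 6 and 37 lymphatic UMIs gave 214, 289.6 and 285 CPM, above every value of the other classes.

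Running was then set against sedentary within each class, counting a gene as past the fold at a log2 ratio of at least 0.32 in either direction. At least 100 UMIs over the 2 libraries were required. No test is possible with 1 library per group. In capillary-like cells 27 of the 35 genes had enough UMIs; 4 were higher in running, against 9.14% of 7562 genes, and 9 were lower, against 11.1%, with a median log2 ratio of -0.13 against -0.01 for all genes. In artery-like cells 22 had enough; 6 were higher, against 9.89% of 3234 genes, and 0 were lower, against 10.3%. In vein-like cells 19 had enough; 3 were higher, against 10.6% of 2217 genes, and 3 were lower, against 12.1%. The median log2 ratio was 0.02 in artery-like cells, against 0.00 for all genes, and 0.04 in vein-like cells, against -0.02.

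**Figure D4:**
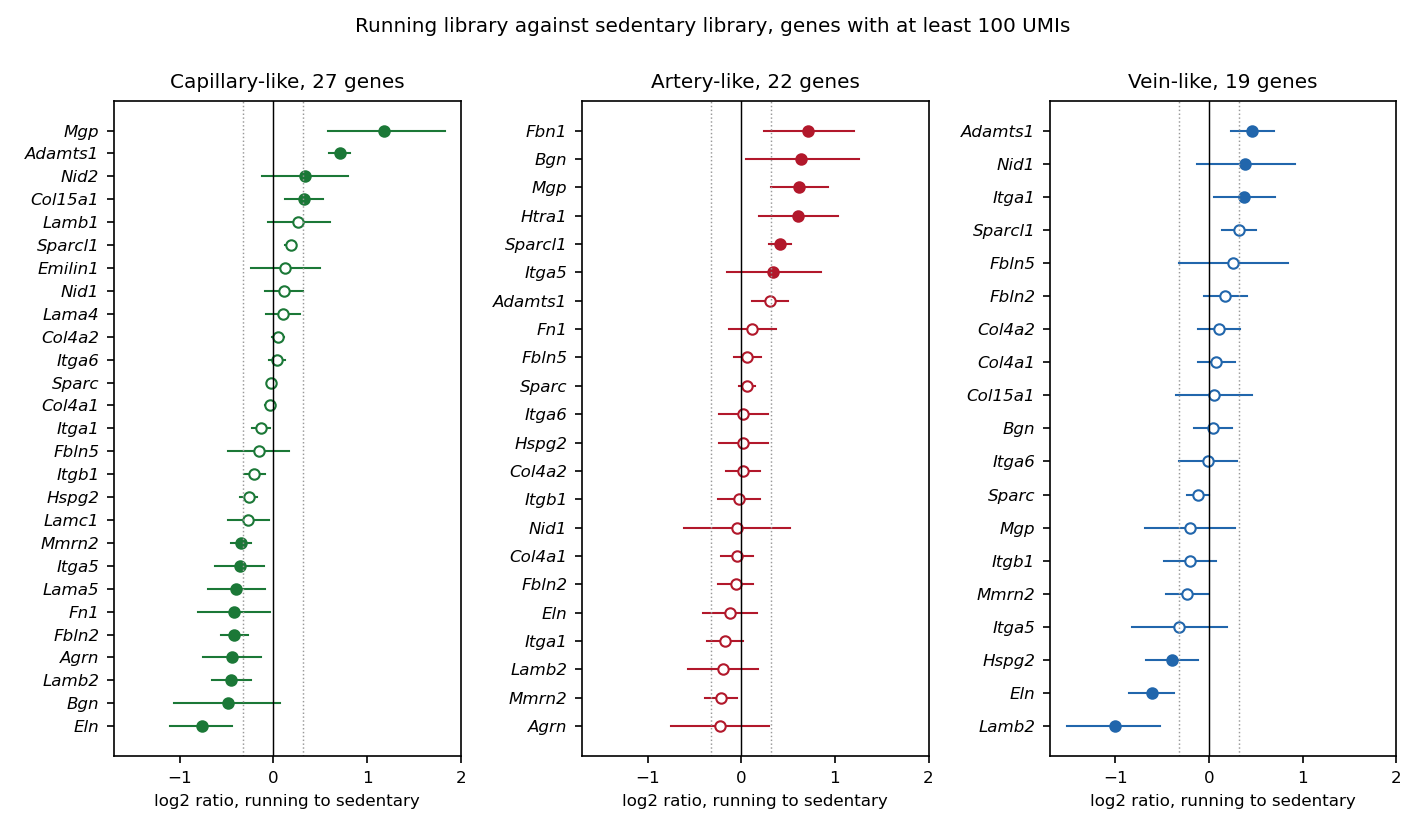
Log2 ratio of the running to the sedentary library for each gene with at least 100 UMIs, in capillary-like (green), artery-like (red) and vein-like (blue) cells, with exact 95% intervals for counting error; filled points are past a log2 ratio of 0.32 in size, which the dotted lines mark. Eln is lowest of the capillary panel at -0.77 and Lamb2 lowest of the vein panel at -1.01.

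Of the capillary genes that were higher in running, Adamts1 rested on the most UMIs, 1704 and 1076, with a log2 ratio of 0.71 (95% interval 0.60 to 0.82). It was higher within each of the 5 capillary clusters, from 0.23 in cluster 10 to 0.86 in cluster 0. The intervals in clusters 4 and 10 include 0. Cluster 1, with 1311 running and 650 sedentary Adamts1 UMIs, was at 0.37 (95% interval 0.23 to 0.51), below the class value. It held 1115 running and 796 sedentary cells, and Adamts1 stood there at 666 and 516 CPM, against 168 and 117 in cluster 7. The class value mixes clusters whose shares differ between the libraries. Adamts1 was also higher in vein-like cells, at 0.46 (95% interval 0.23 to 0.70). Mgp stood at 1.18 (95% interval 0.58 to 1.83) in capillary-like cells, on 73 and 33 UMIs. With each library clustered alone Mgp was at 0.47 and with cells thinned at 1.91, and Adamts1 was at 1.54 with each library clustered alone. A mural or fibroblast UMI was found in 17.9%, 13.1% and 21.1% of capillary-like cells in the 3 libraries. Without such cells Mgp was at 1.11, Adamts1 at 0.76, Eln at -0.71 and Bgn at -0.56. Col15a1 stood at 0.33 (95% interval 0.13 to 0.53) and was above 0 in all 5 capillary clusters, and Nid2 at 0.34 (95% interval -0.12 to 0.79), an interval that reaches below 0.

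Of the capillary genes that were lower, Eln differed most, at -0.77 (95% interval -1.10 to -0.44), with untreated cells highest of the 3 libraries. It was lower in clusters 0, 1, 4 and 7, at -3.49, -0.62, -0.49 and -0.88, and not in cluster 10, at 0.63. The value in cluster 0 rests on 1 running and 18 sedentary UMIs (95% interval -9.42 to -1.38) and that in cluster 10 on 6 and 7, and the interval in cluster 4 includes 0. The alternatives gave -1.14 to -0.71. Lamb2 stood at -0.45 (95% interval -0.66 to -0.24) and Fbln2 at -0.42 (95% interval -0.56 to -0.27); both were below 0 under every alternative. Mmrn2 stood at -0.34 (95% interval -0.45 to -0.23), Fn1 at -0.42 (95% interval -0.80 to -0.04) and Bgn at -0.48 (95% interval -1.05 to 0.07), the last with an interval that includes 0. Mmrn2 was at -0.24, -0.37 and -0.21 in clusters 1, 4 and 7, but at 0.13 and 0.15 in clusters 0 and 10. Fn1 was at -0.86 in cluster 1 and at -0.06 and 0.09 in clusters 4 and 7. In clusters 0 and 10 it was at -1.09 and -0.38, on few UMIs. Agrn stood at -0.44 (95% interval -0.75 to -0.13), Lama5 at -0.39 (95% interval -0.70 to -0.09) and Itga5 at -0.36 (95% interval -0.62 to -0.10). Without cluster 4, whose cells had a median of 711.5 UMIs and of whose 1920 cells 1059 were sedentary, Agrn, Lama5 and Itga5 were at -0.16, -0.11 and -0.10. With cells thinned to 1000 UMIs, which left out 777 untreated, 1800 sedentary and 872 running cells below that depth, they were at -0.04, 0.24 and -0.30, and Mmrn2 was at -0.11.

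Among genes that did not reach the fold in capillary-like cells were both type IV collagens and 3 laminin chains. Col4a1 stood at -0.04 (95% interval -0.09 to 0.02) and Col4a2 at 0.05 (95% interval -0.02 to 0.11). Lama4 stood at 0.10 (95% interval -0.08 to 0.29), Lamb1 at 0.27 (95% interval -0.06 to 0.60) and Lamc1 at -0.27 (95% interval -0.48 to -0.05). Sparc stood at -0.02 (95% interval -0.06 to 0.02) and Itga6 at 0.04 (95% interval -0.04 to 0.13). Hspg2, at -0.26 (95% interval -0.35 to -0.18), and Itgb1, at -0.20 (95% interval -0.32 to -0.09), also fell short of it. Hspg2 is among the leading genes of cluster 4, which held 1059 sedentary and 434 running cells. Within clusters 0, 1, 4, 7 and 10 Hspg2 was at -0.46, -0.13, -0.02, -0.04 and -0.18, with intervals that include 0. Within single capillary clusters some values were higher. In clusters 4 and 7, Sparc was at 0.29 and 0.10, Itga6 at 0.28 and 0.21 and Col4a2 at 0.20 and 0.16. Their intervals lay above 0. Col4a1 ran from 0.05 in cluster 7 to 0.12 in cluster 0, with intervals that include 0. Itga6 was at -0.14 in cluster 10, and Col4a2 was at -0.13 and Sparc at -0.01 in cluster 0.

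In artery-like cells the 6 genes past the fold were Fbn1 at 0.72 (95% interval 0.25 to 1.21) and Bgn at 0.64 (95% interval 0.05 to 1.26), then Mgp at 0.62 (95% interval 0.31 to 0.93) and Htra1 at 0.61 (95% interval 0.20 to 1.03). Sparcl1 was at 0.41 (95% interval 0.29 to 0.53) and Itga5 at 0.34 (95% interval -0.15 to 0.85), the last with an interval that includes 0. Sparcl1 and Fbn1 were higher in both artery clusters, at 0.44 and 0.53 in cluster 2 and 0.41 and 0.93 in cluster 12. Sparcl1 was also higher in every capillary cluster, from 0.15 in cluster 4 to 0.35 in cluster 10. In vein clusters 8 and 9 it was at 0.45 and 0.25. All of these Sparcl1 intervals lay above 0, although the gene was not past the fold in the capillary-like or vein-like class. Mgp, Bgn and Htra1 were higher in cluster 12, at 0.91, 1.19 and 1.21, and lower in cluster 2, at -0.55, -0.50 and -0.74. Few cells held most UMIs of Mgp and Bgn. The 10 highest cells held 85.5% of sedentary and 77.4% of running artery UMIs for Mgp, and 53.8% and 57.1% for Bgn. The intervals do not cover this spread between cells. A mural or fibroblast UMI was found in 24.5%, 19.2% and 35.4% of artery-like cells in the 3 libraries, and Rgs5 gave most of the mural UMIs. The 9 fibroblast markers summed to 12.1, 7.55 and 26.1 CPM there, with Pi16 highest and Lum, Col1a1 and Dpt at 0 in all 3 libraries. Without such cells Mgp was at 0.78, Bgn at 1.05 and Htra1 at 0.92. Untreated artery-like cells had the highest Mgp of the 3 libraries and the lowest Htra1.

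In vein-like cells Lamb2 was lowest, at -1.01 (95% interval -1.52 to -0.52), and was lower in both vein clusters, at -0.90 and -0.93. Eln stood at -0.61 (95% interval -0.85 to -0.38), again below 0 in both clusters, and at -0.32 without cells holding a mural or fibroblast UMI. Hspg2 stood at -0.39 (95% interval -0.67 to -0.12). Itga1 stood at 0.37 (95% interval 0.05 to 0.70) and Nid1 at 0.38 (95% interval -0.13 to 0.91), the latter with an interval that includes 0. Adamts1 was higher in the class but at -0.10 in cluster 8 and 0.26 in cluster 9.

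The untreated library was set against the same sedentary library, so its ratios are not independent of those for running, and batch and group cannot be told apart for it. In capillary-like cells 26 genes had enough UMIs; 5 were higher, against 15.5% of 7325 genes, and 9 were lower, against 29.2%, with a median of -0.16 against -0.11 for all genes. Fbln5 was at -1.82 (95% interval -2.35 to -1.35), on 44 and 176 UMIs, but this value depended on which cells counted as capillary. With cluster 5, which alone held 56 untreated Fbln5 UMIs, named capillary by its score, Fbln5 was at -0.92 and Fn1 at -0.34, and with each library clustered alone Fbln5 was at -0.31. Hspg2 was at -0.98 (95% interval -1.09 to -0.88), and at -0.97 with cluster 5. Itga5 was at -0.85 (95% interval -1.15 to -0.56) and Mmrn2 at -0.78 (95% interval -0.90 to -0.66). Nid1 was highest, at 0.67 (95% interval 0.48 to 0.86), then Eln at 0.64 (95% interval 0.38 to 0.90). Itga1 was at 0.40 (95% interval 0.32 to 0.49), Fbln2 at 0.35 (95% interval 0.22 to 0.48) and Itgb1 at 0.34 (95% interval 0.24 to 0.45). Lamb2, Fn1, Lama5, Nid2 and Agrn were lower by 0.50 to 0.66 on the log2 scale.

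Genes of the same pathways outside the 35 were counted from 6 lists. Unlike the 35, these genes were not left out of the clustering, so their levels may have had a part in choosing the cells. Mfap2 is among the 10 leading genes of vein-like cluster 8 and Col8a1 of artery-like cluster 2, so their values are a description. Against capillary, 11.6% of all genes were higher and 10.9% lower in artery-like cells. In vein-like cells 13.2% of all genes were higher and 10.5% lower. Of 24 other basement membrane genes 7 were tested; 3 were higher and 3 lower in artery, and 3 higher and 1 lower in vein. Among them, Col8a1 had the largest artery difference, at 4.94 ± 0.16, and did not pass in vein (0.42 ± 0.30). Lama3, a laminin alpha chain, was higher in artery (1.92 ± 0.29) and lower in vein (-2.53 ± 0.75). Thbs1, thrombospondin 1, was lower in artery (-1.04 ± 0.38) and higher in vein (3.15 ± 0.21). Of 17 other elastic fibre genes 4 were tested; 1 was higher and 1 lower in artery, and 1 was higher and 0 were lower in vein. Mfap2, a microfibril protein, was lower in artery (-4.44 ± 0.78) and higher in vein (2.27 ± 0.28), and Ltbp4 was higher in artery (0.43 ± 0.10). Of 13 other integrins 4 were tested; 2 were higher and 1 lower in artery, and 3 were higher and 1 lower in vein. Itgb4, the partner of Itga6, was higher in both (3.14 ± 0.31 and 4.98 ± 0.25).

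Of 17 integrin adhesion genes 16 were tested, with 5 higher and 4 lower in artery-like cells and 4 higher and 7 lower in vein-like cells. All 12 collagen modification genes were tested, with 0 higher and 2 lower in artery and 3 higher and 2 lower in vein. Of 15 other proteases 10 were tested, with 2 higher and 3 lower in artery and 5 higher and 2 lower in vein.

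In running against sedentary capillary-like cells, where 9.14% of all genes were higher and 11.1% lower, 40 genes of these lists had enough UMIs. Of the 5 basement membrane genes 1 was higher and 2 were lower, with Hmcn1 at 0.35 (95% interval -0.14 to 0.85) and Tinagl1 at -0.40 (95% interval -0.51 to -0.29). The 1 elastic fibre gene, Ltbp4, was at -0.63 (95% interval -0.72 to -0.53), and the 1 integrin, Itgb5, at -0.68 (95% interval -0.97 to -0.41). Of 16 adhesion genes 0 were higher and 1 lower, of 10 collagen modification genes 0 and 2, and of 7 proteases 0 and 2. In the untreated library, set against the same sedentary cells, Ltbp4 was at -0.95 (95% interval -1.06 to -0.84) and Itgb5 at -0.68 (95% interval -0.97 to -0.40), so that the sedentary library was the highest of the 3 for both.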

How the data were processed

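Single-cell RNA-seq counts of 3 libraries were analysed. The matrices hold whole-number UMI counts per gene and barcode, as deposited by the authors, made with Cell Ranger 2.0.2 on GRCm38.p5 per the submitters' processing notes; the sources used here give neither annotation release nor strand setting nor cell calling. Barcodes with at least 300 genes and at most 10% mitochondrial UMIs were kept (4326 untreated, 4016 sedentary and 3212 running). Cells were clustered in scanpy 1.11.5 (2000 variable genes, 30 components, 15 neighbours, Leiden resolution 1.0) with the 35 genes left out, and 16 clusters were named from marker scores. The score limits and the rule on leading genes, read only among genes detected in at least 10% of a cluster's cells, were chosen after seeing the data, as was the comparison with names from scores alone. Clusters that went against their score or passed no limit stayed unnamed. Scrublet marked 0 cells, so it did not work as a filter, and leaving out the 5% highest doublet scores was tried instead.

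UMIs were summed per class and library. Classes were compared with edgeR 4.0.16 in R 4.3.3 (quasi-likelihood test, library as a block, 9 sums, 9945 genes, Benjamini-Hochberg adjustment). Running and untreated ratios to sedentary used CPM with a prior count of 0.5 and exact 95% Poisson-ratio intervals, which cover counting error only. Directions within a library for lymphatic cells and for pairs of clusters used CPM without the prior. A count of 0 allows up to 3 counts. The members and the gene lists were chosen with earlier results of these data known. Genes named with values in every library were, first, those past the fold in running (a log2 ratio of 0.32 in size). Added were the most abundant of each role and the 6 highest and 6 lowest in artery or vein against capillary. From the lists, only some of the genes with the largest differences were named. The model scripts were tested on simulated data. Alternatives covered the clustering, cell filters, thinning to 1000 UMIs, mural and fibroblast UMIs, DESeq2 1.42.0, filters, scaling, the block, thresholds and each library left out.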

Additional observations from a re-analysis of the deposited data

Results flagged for a closer look

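The log2 ratio of running to sedentary for Bgn was -0.48 in capillary-like and 0.64 in artery-like cells. The capillary interval includes 0, and artery cluster 2 alone was at -0.50. The difference between classes was not tested. Itga5 also had ratios of opposite sign, at -0.36 in capillary-like and 0.34 in artery-like cells. Its artery interval includes 0, and this difference was not tested either.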

How the results depend on the processing

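Of the class calls, 20 of 28 in artery against capillary, 18 of 27 in vein against capillary and 9 of 17 in artery against vein were kept under every alternative run. Artery-to-vein genes that were lower went from 8 to 5 with each library clustered alone and to 4 with no library block. No paired analysis was possible because the labels give no replicate numbers and each group has 1 library; the library block above pairs classes, not groups.

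Counts past the fold in running against sedentary depended more on the settings. In capillary-like cells, 4 higher became 2 with each library clustered alone, 2 without the highest 5% of doublet scores, 8 at a UMI minimum of 20 and 2 at 1.5-fold; 9 lower became 5 at 500 genes per cell, 3 thinned, 4 without cluster 4 and 1 at 1.5-fold. In artery-like cells, 6 higher became 2 at 500 genes, 2 thinned and 1 without cluster 12, and 0 lower became 2 thinned, 1 without cluster 12 and 1 at a UMI minimum of 20. In vein-like cells, 3 higher became 1 clustered alone, 1 without cluster 8, 6 at a UMI minimum of 20 and 0 at 1.5-fold, and 3 lower became 1 thinned, 1 without cluster 8 and 5 at a UMI minimum of 20. For untreated capillary-like cells, 5 higher became 3 at resolution 0.5, 2 clustered alone, 8 thinned, 8 without cluster 4, 8 at a UMI minimum of 20 and 2 at 1.5-fold, and 9 lower became 14 clustered alone and 5 thinned.

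The direction reversed for Lama5 in capillary-like cells (0.24, thinned), Nid1 in vein-like cells (-0.032, thinned), Mgp, Bgn and Htra1 in artery-like cells (-0.55, -0.50 and -0.74, without cluster 12), and, untreated to sedentary, Agrn (0.045, thinned) and Fn1 (0.090, clustered alone). The cause was not tested. Lox, Itgb3, Col18a1 and the lymphatic values rest on few UMIs.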
